A study of Rattus norvegicus with 3 samples.

Results

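The plantaris and the soleus are neighbouring calf muscles of the rat, and the 2 normal muscles were set side by side here, gene by gene, on 1 array each. These are 2 of the 3 arrays of the series. The study measured messenger RNA on one-colour Agilent arrays in the normal soleus, the normal plantaris and a denervated soleus. All came from male rats aged 12 weeks of a Wistar background ("Wistar Honnover" in the labels). The 2 normal muscles had no treatment, and the array for the normal soleus was placed by its source name, since its title does not name the muscle. The denervated soleus was taken 28 days after the left sciatic nerve had been transected over 5 mm, and it serves below only as context. How many animals stand behind an array is not given. There are no replicates, so a fold describes 2 RNA samples and no p-value, SD over animals or interval is given. Soleus and plantaris were hybridised on the same slide and share a scan, whereas the denervated soleus is on a different slide.

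Skeletal muscle is built from slow fibres, which contract slowly, resist fatigue and burn fatty acids and glucose in mitochondria, and fast fibres, which contract quickly and draw on glycogen and glycolysis. Most contractile proteins exist as a slow and a fast isoform from separate genes. The soleus of the rat is known as a postural muscle of mainly slow fibres, and the plantaris as a mixed, mainly fast muscle that helps to extend the ankle.

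Levels are log2 signals relative to the 75th percentile of the array, so a level of 0 is a spot brighter than 75% of the array and 1 unit is 2-fold. Differences are plantaris minus soleus in the same log2 units. "Higher" and "lower" are used for genes at least 2-fold apart, which is a rule of size. Of 11015 genes compared, 5.71% were higher in plantaris by this rule (629 genes) and 6.11% lower (673 genes), and the median difference was 0.02. Counts in the gene lists below are to be read against these 5.71% and 6.11%. The scanner's own signal error of a difference was 0.21 at the median and at most 0.3 in 9112 genes; errors above 0.3 are printed beside the value. A gene well above background on 1 array only is given as a bound, with "at least". Whole muscle was measured, so fewer fibres of a type and less RNA per fibre cannot be told apart.

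Of the genes well above background on both arrays, 108 were at least 4-fold higher in plantaris and 95 at least 4-fold lower. Beyond that the sides parted. 11 genes were higher by 4 log2 units or more and 6 lower, and 7 were higher by 5 or more, with 0 lower. The high side was led by Actn3, the alpha-actinin specific to fast fibres, at -0.35 on the soleus array and 9.24 on the plantaris array, which is 770-fold. Its 2 spots differed by an SD of 0.02 on the soleus array and 0.01 on the plantaris array. The low side was led by Fhl2, a LIM domain protein of the sarcomere, at 0.14 and -4.49 (24.7-fold higher in soleus). Its plantaris spots are faint and differed by an SD of 0.46, and with normexp background it stood at -2.99, behind Ankrd2 at -4.29.

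**Figure D1:**
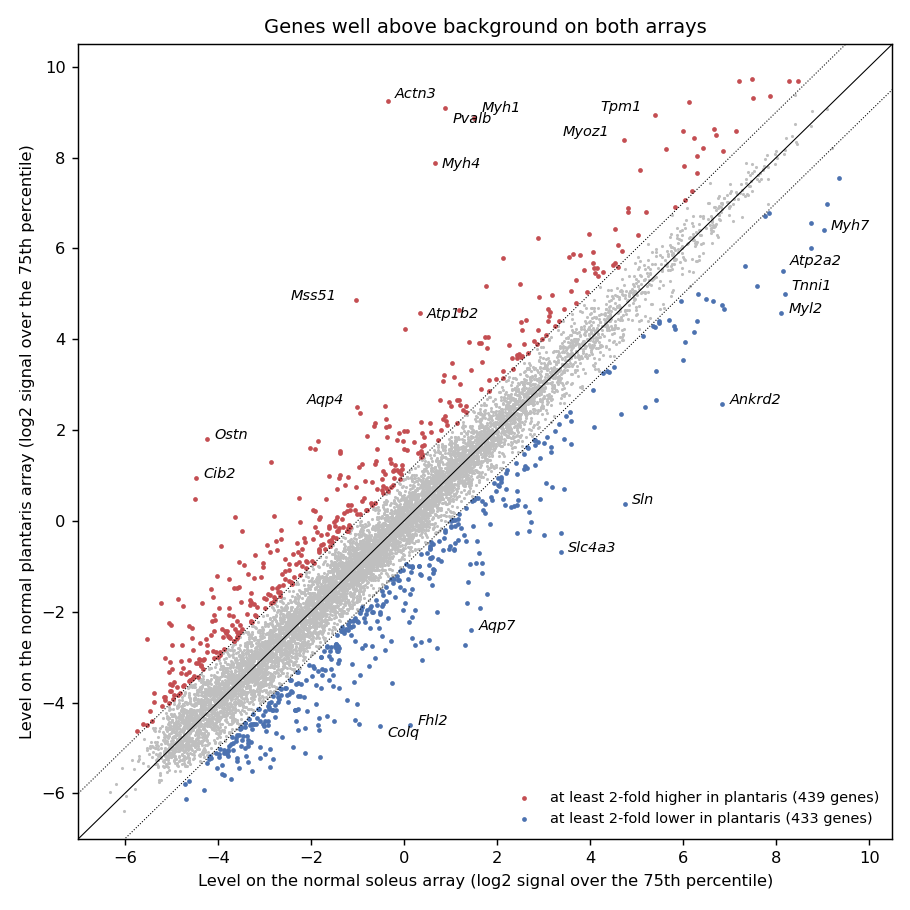
Level of each gene well above background on both arrays, normal soleus on the horizontal axis and normal plantaris on the vertical axis, in log2 signal over the array's 75th percentile. The solid line marks equal levels and the dotted lines 2-fold. The 439 higher genes (red) reach farther from the line, up to Actn3 at 9.59, than the 433 lower genes (blue), which reach Fhl2 at -4.63.

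Myosin heavy chains are the motors of the thick filament, and their isoform sets the speed of a fibre. Of 11 heavy chain genes compared, 3 were higher in plantaris, 5 lower and 3 within 2-fold (median -0.13). Myh1, the IIx chain, stood at 1.5 on the soleus array and 8.87 on the plantaris array, and Myh4, the IIb chain, at 0.66 and 7.88. Both lay far above the 75th percentile in plantaris and much nearer to it in soleus. Myh2, the IIa chain, stood at 5.76 and 6.74, a difference of 0.98 that is within 2-fold on this probe and 1.02 on another. Myh8, the perinatal chain, stood at 8.46 and 9.69, higher by 1.22 (0.81 under quantile normalization). The slow chain Myh7 stood at 9.03 on the soleus array and 6.41 on the plantaris array, still far above the 75th percentile in the faster muscle. Myh6, the atrial chain, stood at 9.10 and 6.97, and Myh7b, a slow-type chain also known from intrafusal and eye muscle fibres, at 1.79 and -1.60. The embryonic chain Myh3 was lower by 2.74 on the log2 scale, and -2.80 on another probe. Among non-muscle chains Myh10 stood at 1.54 and -0.93 (-2.47), while Myh9 (-0.02) and Myh14 (-0.13) were near equal.

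Sarcomeric myosin genes are close in sequence, and a probe of one may take up RNA of another, which was not tested. In the RefSeq gene order Myh3, Myh2, Myh1, Myh4 and Myh8 follow each other with 0 protein-coding genes between neighbours. Along this cluster the differences were -2.74, 0.98, 7.37, 7.22 and 1.22, with Myh3 alone below 0. Myh6 and Myh7 are direct neighbours too and were both lower, at -2.12 and -2.62.

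The promoters of a fast and a slow myosin gene and of a fast and a slow troponin I gene are shown because in each pair the fast gene was higher and the slow gene lower. Each runs from 250 bases before the annotated start to 50 after it, from RefSeq on assembly GRCr8, 5′ to 3′ on the gene's strand. Capitals mark 3 motifs searched on both strands: the E-box CANNTG, which MyoD family factors bind, the MCAT element CATTCC, which TEAD factors bind, and the TATA box TATAAA. In these 4 promoters no base was shared by different motifs.
Myh4, chr10:52421898-52422197, plus strand: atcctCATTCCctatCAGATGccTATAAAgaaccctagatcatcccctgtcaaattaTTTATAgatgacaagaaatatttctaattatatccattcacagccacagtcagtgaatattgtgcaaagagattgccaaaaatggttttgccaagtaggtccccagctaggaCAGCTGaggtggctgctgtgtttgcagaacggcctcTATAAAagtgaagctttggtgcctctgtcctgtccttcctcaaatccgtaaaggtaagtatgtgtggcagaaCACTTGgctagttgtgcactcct
Myh7, chr15:32438145-32438444, minus strand: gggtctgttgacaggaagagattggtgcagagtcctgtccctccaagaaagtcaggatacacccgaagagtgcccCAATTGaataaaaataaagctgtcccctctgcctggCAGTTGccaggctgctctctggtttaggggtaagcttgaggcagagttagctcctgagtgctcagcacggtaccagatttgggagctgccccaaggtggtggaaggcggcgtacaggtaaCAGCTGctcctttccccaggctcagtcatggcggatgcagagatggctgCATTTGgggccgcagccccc
Tnni2, chr1:207024240-207024539, plus strand: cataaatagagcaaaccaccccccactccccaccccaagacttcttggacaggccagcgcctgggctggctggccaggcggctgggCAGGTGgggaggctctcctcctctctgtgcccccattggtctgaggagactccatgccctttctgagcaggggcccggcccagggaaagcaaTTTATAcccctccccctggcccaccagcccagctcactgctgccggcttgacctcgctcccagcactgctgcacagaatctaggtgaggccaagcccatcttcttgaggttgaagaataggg
Tnni1, chr13:49781279-49781578, plus strand: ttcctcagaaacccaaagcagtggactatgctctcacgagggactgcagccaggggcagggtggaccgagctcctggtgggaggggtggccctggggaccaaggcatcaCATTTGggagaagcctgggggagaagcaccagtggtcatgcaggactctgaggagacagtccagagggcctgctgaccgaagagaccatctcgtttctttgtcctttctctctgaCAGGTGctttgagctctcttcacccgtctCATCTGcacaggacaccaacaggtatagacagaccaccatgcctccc
The Myh4 promoter held 3 E-boxes, 1 MCAT element and 3 TATA boxes, and the Myh7 window 4 E-boxes with neither MCAT nor TATA. The last E-box of the Myh7 window follows an ATG whose reading frame has no stop codon up to the window's end. Whether the annotated start of Myh7 is where its transcript begins was not tested. The lack of MCAT and TATA therefore holds for this window only, not for the Myh7 promoter as such. The Tnni2 promoter held 1 E-box and 1 TATA box, and the Tnni1 promoter 3 E-boxes. These letters are common. An E-box occurred in 71.6% of all 27457 promoters in the table, MCAT in 13.9% and TATA in 14.3%. Among genes measured on both arrays, 63.5% of 8254 promoters held an E-box, against 73.0% of 89 from genes at least 4-fold higher in plantaris and 80.6% of 72 from genes at least 4-fold lower. MCAT occurred in 11.6%, 18.0% and 15.3% of the same promoters, and TATA in 674 of 8254, 9 of 89 and 10 of 72. The shares of E-box, MCAT and TATA were each above that of all measured genes on both sides of the comparison. For TATA they rest on 9 and 10 promoters and lay below the 14.3% of the whole table. Whether any of these shares differ beyond chance was not tested. Other motifs were searched too and are not reported here. The motifs and the 4-fold sets were chosen after the data had been seen, and a match is not evidence of a bound site.

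Of 14 myosin light chain and light chain kinase genes, 3 were higher and 6 lower (median -0.59). The fast regulatory chain Myl11 stood at 7.21 on the soleus array and 9.68 on the plantaris array, and the slow one, Myl2, at 8.11 and 4.57. The essential chains showed the same crossing, with Myl1 at 6.67 and 8.63 and the slow Myl3 at 8.75 and 6.55. Myl4, the atrial and embryonic light chain, stood at 7.58 and 5.17. Mylk2, the skeletal kinase that phosphorylates the regulatory chain, was higher by 1.60 on each of 2 probes, whereas the smooth muscle kinase Mylk was near equal (0.01). Mylk3, the cardiac kinase, was lower by at least 2.20 on the log2 scale, with an error of 0.69, and by 0.39 with normexp background. The non-muscle regulatory chains Myl12a and Myl12b, which are direct neighbours in the genome, stood at 6.84 and 4.76 and at 5.41 and 3.31. Their differences of -2.08 and -2.10 lay within the scanner error of each other, and other probes gave -1.93 and -1.71. They are near-identical genes, so their probes may share signal.

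Thin filament genes were split by isoform. Of 22 compared, 5 were higher in plantaris and 9 lower (median -0.52). The troponin complex switches the filament on when calcium binds. Its 3 fast subunits were all higher: Tnni2 (7.47 on the soleus array, 9.72 on the plantaris array), Tnnt3 (6.12 and 9.23) and Tnnc2 (8.28 and 9.68, higher by 1.39 or by 0.96 under quantile normalization). Its 3 slow subunits were all lower: Tnni1 (8.18 and 5.00), Tnnt1 (9.36 and 7.55, or -2.57 on another probe) and Tnnc1 (8.75 and 6.01). The cardiac troponin T Tnnt2 was lower by 1.92 on the log2 scale and the cardiac troponin I Tnni3 by at least 3.12 (error 0.44; 1.28 with normexp background). Troponin I and T genes lie in pairs in the genome, with 5 protein-coding genes between Tnni2 and Tnnt3, 1 between Tnni1 and Tnnt2, and 0 between Tnni3 and Tnnt1. Within each pair both genes differed in the same direction: 2.25 and 3.11, -3.19 and -1.92, and -3.12 as a bound and -1.81.

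Tropomyosins lie along actin and hold the troponin complex. The alpha-tropomyosin Tpm1 stood at 5.39 and 8.95 on 1 probe, yet another probe of it gave -0.12, so its probes disagree. The slow Tpm3 stood at 2.68 and 0.20, and Tpm2 was near equal (0.11). Tpm4 was lower by 1.0 on the log2 scale (0.92 with normexp background). Cardiac actin Actc1 stood at 5.42 and 2.67, against 8.77 and 9.02 for skeletal actin Acta1. Proteins of the filament's pointed end differed in opposite directions, with tropomodulin Tmod1 at -0.63 and 1.25 and leiomodin Lmod2 at 6.29 and 4.40.

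In the thick filament and M-band list of 10 genes, 2 were higher and 1 lower (median 0.03). Mybph, a myosin-binding protein related to MyBP-C, stood at -0.58 and 1.59, and Myom2, the M-protein of fast fibres, at 2.62 and 4.42. Their partners Mybpc1 (-0.04) and Myom1 (-0.26) were within 2-fold. The lower gene was Hspb7, a small heat shock protein of muscle, at 2.61 and 0.32.

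Z-disc and stretch-sensing genes numbered 22, with 6 higher and 7 lower (median -0.23). Besides Actn3, Myoz1, a calcineurin-binding Z-disc protein of fast fibres, stood at 4.72 and 8.38. Pdlim3 was higher by 1.35 and Synm, an intermediate filament protein, by 1.27 (0.95 on another probe). Xirp2 and Ankrd1 were at the threshold with 1.0 each and fell below it in 3 of 5 alternatives. Actn2, the alpha-actinin of all fibres, was lower by 1.15 on the log2 scale, so Actn3 and Actn2 differed in direction. Ankrd2, a titin-bound stretch sensor, stood at 6.84 and 2.57 (19.4-fold higher in soleus). Pdlim1 (4.67 and 2.35) and Csrp3, the muscle LIM protein (5.80 and 4.30), were lower too. Of the FHL family, Fhl1 was lower by 1.05 on the log2 scale (0.98 with median centring) and Fhl3 was at -0.31, beside -4.63 for Fhl2.

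Calcium is released from the sarcoplasmic reticulum to start contraction and pumped back to end it. Of 32 genes of release, uptake and buffering, 8 were higher and 5 lower (median 0.52). Pvalb, the cytosolic calcium buffer parvalbumin, stood at 0.89 and 9.09, which is 294-fold. The fast pump Atp2a1 (SERCA1) stood at 7.51 and 9.30, and the slow pump Atp2a2 (SERCA2) at 8.14 and 5.50. Both pump regulators were lower: sarcolipin, Sln, stood at 4.74 and 0.37 (20.8-fold higher in soleus) and phospholamban, Pln, at 0.86 and -0.37. Calsequestrins store calcium in the reticulum, and fast Casq1 was higher by 1.80 while cardiac Casq2 was lower by 2.68 on the log2 scale. The plasma membrane pump Atp2b3 stood at -2.15 and -0.38 (1.77, or 2.07 on another probe), against 0.23 for Atp2b1. The voltage sensor genes Cacna1s (1.1), Cacna2d1 (1.09) and Cacng6 (1.03) and the junctional protein Jph2 (1.03) passed 2-fold narrowly, and each was below it in 2 or more alternatives. S100a1, which enhances calcium release, was lower by 1.14 on the log2 scale.

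Calcineurin is a calcium-dependent phosphatase known to favour slow-fibre genes. In the list of 34 fibre type regulators, 7 genes were higher and 6 lower (median 0.29), and its calcineurin members split by role. The catalytic subunits Ppp3ca (-1.01 and 0.16) and Ppp3cb (-0.15 and 1.13) and the regulatory subunit Ppp3r1 (-2.32 and -0.95) were all higher in plantaris, by 1.17, 1.28 and 1.37. With normexp background Ppp3ca stood at 0.99. The calcineurin regulators Rcan1 (4.09 and 2.07) and Rcan2 (-0.73 and -2.36) were both lower, by 2.02 and 1.64 on the log2 scale.

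Among transcription factors of the same list, Sox6, a repressor of slow-fibre genes, stood at -4.76 and -1.87 (2.88, error 0.32; 1.69 with normexp background) and Maf, a large Maf factor linked to IIb fibres, at -2.95 and -0.52. Six2 was higher by at least 2.11 (error 0.43; 0.86 with normexp background), while its relative Six4 was at 0.28. The cofactor subunit Smarcd3 was higher by 1.17. Vgll2, a TEAD cofactor, was lower by 1.19 on the log2 scale, and the methyltransferase Mettl21c stood at 2.43 and -0.27. Of 15 myogenic and stem cell factors, 2 were higher and 1 lower (median -0.05), against 5.71% and 6.11% of all genes. Myod1 stood at -0.10 and 1.93 and Myog, its later-acting relative, at 2.12 and 0.49, whereas Myf5 (0.18) and Myf6 (0.06) were near equal.

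Homeobox and limb position genes mark where in the body and limb a muscle formed. Of 26 compared, 2 were higher and 2 lower (median 0.01), against 5.71% and 6.11% of all genes. Hoxa11 stood at -0.47 and 0.67 and Hoxd10 at -4.52 and -3.42, higher by 1.15 and 1.1, and at 0.95 and 0.50 with normexp background. Emx2 stood at -0.35 and -2.13. Pitx1, the hindlimb factor, was at 0.36.

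**Figure D2:**
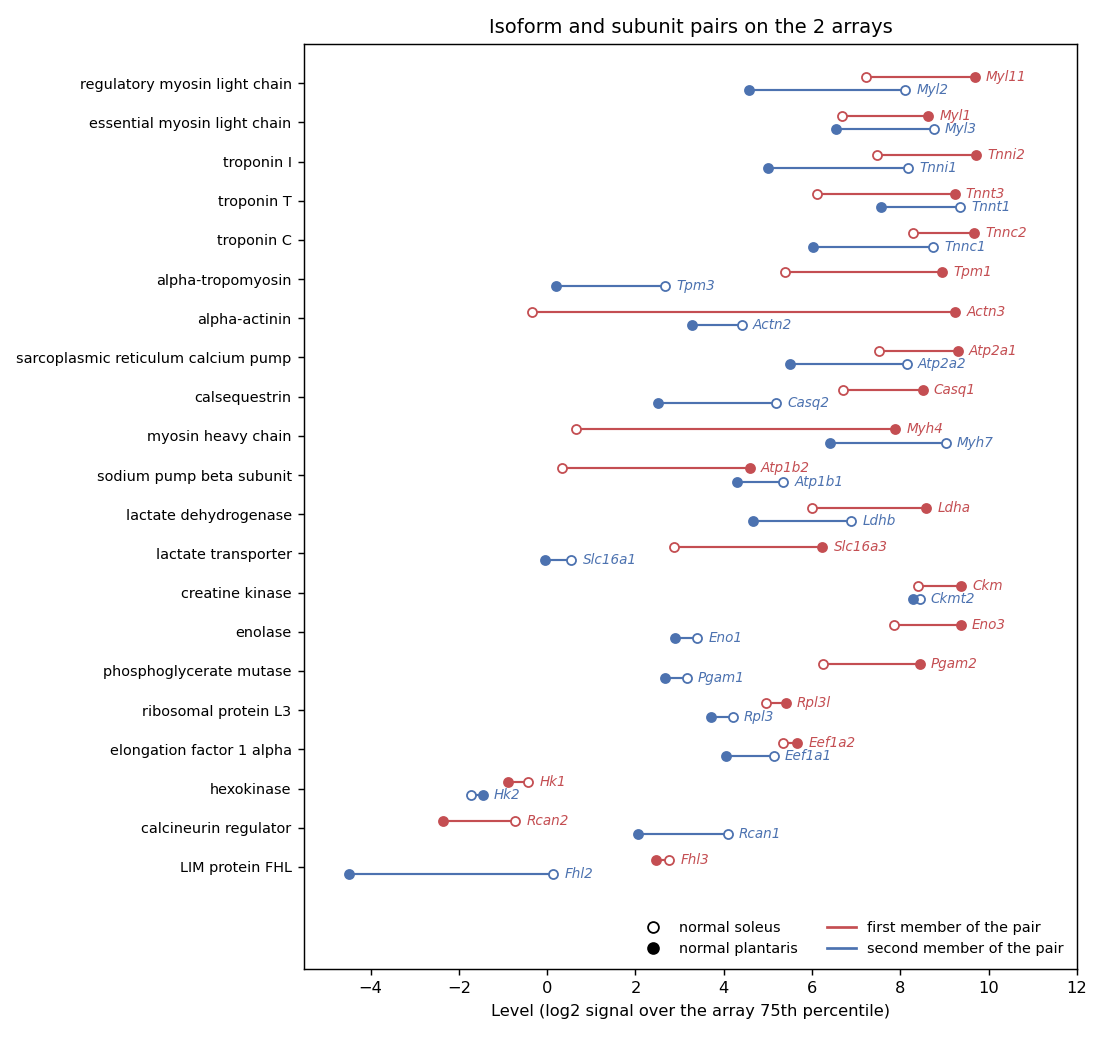
Levels of 21 isoform or subunit pairs on the normal soleus array (open circles) and the normal plantaris array (filled circles), in log2 signal over the array's 75th percentile; red is the first named member and blue the second. By brightest probe, in 12 pairs the first member was at least 2-fold higher in plantaris and the second at least 2-fold lower. Rcan2 and Rcan1 were both lower. Lines compare 1 gene between arrays, not 1 gene with the other.

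In all, 25 isoform pairs were listed and 22 had both members compared. In 12 the first member was higher and the second lower, in 3 the first alone was higher, in 2 the second alone was lower, and in 4 both were within 2-fold. The remaining pair was Rcan2 and Rcan1. Those with the first alone past 2-fold were the lactate transporters, enolases and phosphoglycerate mutases. The pairs within 2-fold included the creatine kinases, hexokinases and ribosomal L3 proteins. For elongation factor 1 alpha only the general Eef1a1 passed 2-fold, at -1.07, with muscle-specific Eef1a2 at 0.33. The pairs were picked as known fast and slow or tissue isoforms, with earlier results of these arrays known. Among the 12 crossed pairs, that of Tpm1 and Tpm3 holds on the brightest Tpm1 probe only, as another gave -0.12. That of Atp1b2 and Atp1b1 was lost with median centring, where Atp1b1 stood at -0.99.

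Of 38 genes of membrane excitability and the sodium pump, 8 were higher and 5 lower (median 0.20). The pump restores sodium and potassium gradients after each action potential. Its beta subunit Atp1b2 stood at 0.34 on the soleus array and 4.58 on the plantaris array, which is 18.9-fold, while Atp1b1 stood at 5.35 and 4.29 and Atp1b3 at 1.08 and 1.34. The lower value of Atp1b1 (-1.06) was -0.99 with median centring. The pump regulator Fxyd6 stood at 2.43 and 0.35, with -0.93 on another probe, and Fxyd1 was near equal (0.11). Of these 3 beta subunits, Atp1b2 was the one past 2-fold under every centring tried.

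Among ion channels, Clcn1, the chloride channel that steadies the fibre membrane, stood at -3.31 and -1.73, the potassium channel Kcnc4 at -3.28 and -1.58 and the inward rectifier Kcnj12 at -1.67 and -0.28. The muscle sodium channel Scn4a was higher by 1.24 (0.95 with normexp background) and Abcc8, a subunit of the ATP-gated potassium channel, by 1.15. Toward soleus, the anion exchanger Slc4a3 stood at 3.37 and -0.69 (16.6-fold higher in soleus), and Kcnk2, a leak channel, was lower by 1.19 on the log2 scale (0.95 with normexp background).

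Water channels differed in both directions. Aqp4, the aquaporin that the dystrophin complex holds at the fibre membrane, stood at -1.01 and 2.50, which is 11.4-fold, and other probes gave 2.44 and 3.10. Aqp7, which carries glycerol as well as water, stood at 1.44 and -2.40 (14.3-fold higher in soleus). Aqp1, the channel of capillary endothelium, stood at 3.12 and 3.19. Among the 24 genes of the dystrophin complex and sarcolemma, 3 were higher and 1 lower (median 0.20), against 5.71% and 6.11% of all genes. Besides Aqp4, Popdc3 was higher by 1.52, and neuronal nitric oxide synthase Nos1, a partner of the complex, by at least 2.31, on 1 spot with an error of 1.46 (0.79 with normexp background). Dystrophin itself, Dmd, was at -0.24.

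The nerve-muscle junction list had 1 of 19 genes higher and 7 lower (median -0.66), against 5.71% and 6.11% of all genes. Colq, the collagen tail that anchors acetylcholinesterase in the synaptic cleft, stood at -0.52 and -4.53 (-4.01, or -2.67 with normexp background), and the enzyme, Ache, at -1.46 and 0.03, so anchor and enzyme differed in opposite directions. Among receptor subunits, Chrnd stood at 1.34 and -1.82, Chrna1 at 0.97 and -0.62 and the fetal Chrng at -0.51 and -2.0, while Chrnb1 was at 0.39 and the adult Chrne at -0.24. Dok7, which activates the clustering kinase MuSK, was lower by 1.59 on the log2 scale, while Rapsn, which clusters receptors, was at 0.41 and Lrp4 at -0.10. Erbb3, a neuregulin receptor, was lower by at least 1.83 (error 0.62; 0.37 with normexp background). Gjd2, a neuronal gap junction gene, was lower by at least 4.81, on 1 spot with an error of 1.45 (2.09 with normexp background).

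Glycolysis had the highest share of higher genes among the metabolic lists. Of 28 genes, 19 were higher in plantaris, against 5.71% of all genes, and 1 was lower (median 1.40). Along the pathway, Gpi stood at 3.55 and 5.82, Pfkm, the muscle phosphofructokinase, at 4.81 and 6.89, Aldoa at 5.63 and 8.19, Tpi1 at 6.02 and 7.80, Pgk1 at 6.42 and 8.20, Pgam2 at 6.24 and 8.44 and Pkm at 2.48 and 5.21. Every step named was higher, by 1.78 to 2.73 log2 units. Gapdh and Eno3 were higher by 1.45 and 1.50, and at 0.95 and 0.98 under quantile normalization. Hexokinases, which phosphorylate glucose, were not past 2-fold, with Hk2 at 0.26 and Hk1 at -0.47. Nor was the glucose transporter Slc2a4 (0.06). Pfkl, the liver-type phosphofructokinase, was at 3.33 on 1 probe and -0.13 on another.

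At the end of the pathway, lactate dehydrogenase crossed over. Ldha, whose enzyme favours lactate formation, stood at 6.0 and 8.59, and Ldhb, whose enzyme favours the return to pyruvate, at 6.89 and 4.66. Slc16a3 (MCT4), which exports lactate, stood at 2.88 and 6.23 (10.2-fold), and Slc16a1 (MCT1), known for lactate uptake in oxidative fibres, at 0.55 and -0.06. Slc16a7 (MCT2) was lower by at least 2.52 (error 0.50; 0.79 with normexp background). Car3, the abundant carbonic anhydrase of slow fibres, stood at 6.04 and 3.94. The glycerol phosphate shuttle regenerates NAD, and both of its enzymes were higher: Gpd1 in the cytosol stood at 1.75 and 5.17 and Gpd2 in mitochondria at -0.85 and 0.49. Fbp2, the muscle fructose bisphosphatase, stood at 1.18 and 4.65. The regulators Pfkfb1 and Pfkfb3, which set fructose 2,6-bisphosphate, were higher by 1.32 and 1.35 (for Pfkfb3 0.90 with normexp background and 2.35 as the mean over its probes).

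Glycogen breakdown followed the same direction. Of 27 genes for glycogen, 9 were higher and 1 lower (median 0.21). Muscle phosphorylase, Pygm, stood at 3.97 and 6.32, whereas the brain and liver forms Pygb and Pygl were at -0.38 and -0.50. Phosphorylase kinase turns the enzyme on. Of its subunits, Phka1 stood at -3.55 and -0.90 (2.66, or 1.93 with normexp background), the muscle catalytic subunit Phkg1 at -0.96 and 1.19 and Phkb at -1.59 and -0.55 (1.03, or 0.88 with normexp background), while the liver catalytic subunit Phkg2 was at -0.21. Calm3, one of the genes for its calmodulin subunit, was higher by 1.67. Glycogen-targeting phosphatase subunits Ppp1r3a and Ppp1r3c were higher by 1.60 and 1.46, and synthase Gys1 was near equal (0.13). The branching enzyme Gbe1 was lower by 1.01 on the log2 scale (0.85 with normexp background).

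**Figure D3:**
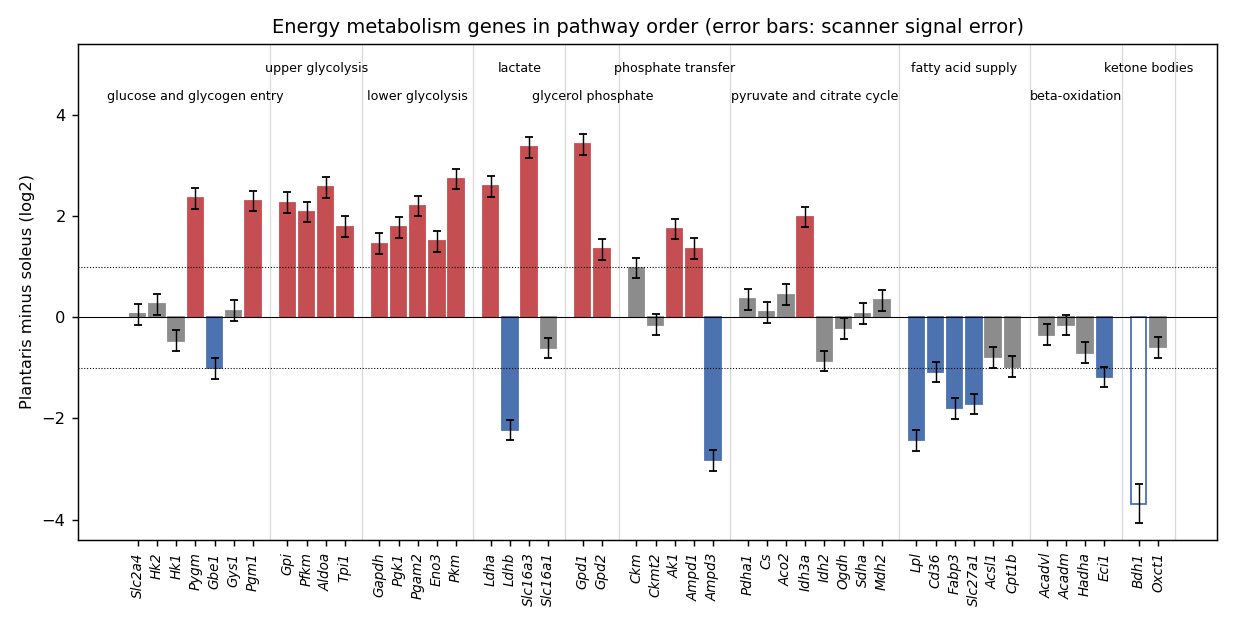
Difference between plantaris and soleus (log2) for genes of energy metabolism in pathway order; red bars are at least 2-fold higher, blue at least 2-fold lower, grey within 2-fold, the open bar a bound, and error bars are the scanner's signal error. From Gpi to Pkm all bars lie above 1, the citrate cycle is grey except Idh3a at 1.98, and Lpl, Fabp3, Slc27a1 and Cd36 lie below -1.

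AMP-activated kinase senses low energy charge and is made of an alpha, a beta and a gamma subunit. Its muscle-enriched forms were higher in plantaris. The gamma 3 subunit Prkag3 stood at -0.63 and 2.16, beta 2 Prkab2 at -0.36 and 1.85 and alpha 2 Prkaa2 at 0.89 and 2.19. The other forms were all within 2-fold, with Prkag1 at 0.08, Prkag2 at 0.03 (error 0.31), Prkab1 at -0.43 and Prkaa1 at -0.86. Among 25 genes of creatine and adenylate energy transfer, 6 were higher and 1 lower (median 0.13). Adenylate kinase Ak1 stood at 6.30 and 8.04 and the muscle AMP deaminase Ampd1 at 6.30 and 7.66 (0.99 under quantile normalization), whereas Ampd3, the red cell form, stood at 1.67 and -1.15. Muscle creatine kinase Ckm was at 0.97 and the mitochondrial Ckmt2 at -0.15.

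Fatty acid genes lay toward soleus. Of 41, 2 were higher and 7 lower at a median of -0.63, against 5.71% and 6.11% of all genes. Uptake and transport made up most of the lower genes: Lpl, which frees fatty acids in the capillary, stood at 3.18 and 0.74, the cytosolic carrier Fabp3 at 6.65 and 4.85, Slc27a1 at 1.08 and -0.63 and the transporter Cd36 at 5.49 and 4.41. Within beta-oxidation Eci1 was lower by 1.18 on the log2 scale, and Acot2 and the droplet protein Plin2 by 1.22 and 1.24. Cpt1b, the gate of mitochondrial import, was at -0.98. Against the list, Ucp3 was higher by 1.47 and Acsl6 by 1.71.

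None of 76 respiratory chain subunits and none of 66 mitochondrial ribosome proteins passed 2-fold in either direction, against 11.8% of all genes, and their medians were 0.13 and 0.08. The respiratory median turned to -0.16 under quantile normalization. Both counts take the brightest probe of each gene. On it the differences in the respiratory chain ran from -0.67 to 0.59, but other probes gave -1.79 for Ndufv3 (0.59 on its brightest) and 1.24 for Uqcrb (0.18). In the list of 33 citrate cycle and shuttle genes, 2 were higher and 1 lower (median 0.18). The alpha subunit of NAD isocitrate dehydrogenase, Idh3a, stood at 0.00 and 1.98, yet its partner subunits Idh3b and Idh3g were at -0.06 and 0.45. Gpt2, the mitochondrial alanine aminotransferase, was higher by at least 4.18 (error 0.49; 2.16 with normexp background), against 0.86 for cytosolic Gpt. Bdh1, which oxidises the ketone body hydroxybutyrate, was lower by at least 3.68 (error 0.38; 1.78 with normexp background). Citrate synthase Cs was at 0.10. The one regulator past 2-fold of 29 was Esrrg, at -1.25 (error 0.36; -0.41 with normexp background).

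Of 41 secreted factors, 5 were higher and 3 lower (median 0.07), against 5.71% and 6.11% of all genes. Ostn, the gene of the muscle peptide musclin, stood at -4.23 and 1.79, which is 65.1-fold. Wnt4 stood at -4.34 and -1.82, and with normexp background Ostn was higher by 4.75 and Wnt4 by 1.54. The cytokine Il15 stood at -2.24 and -0.03 and the neurotrophin Ntf4 at -4.75 and -3.24 (error 0.34; 0.66 with normexp background). Angpt2, a vessel-remodelling factor, was lower by 1.11 on the log2 scale and Sfrp2, a Wnt antagonist, by 1.32, and with normexp background by 0.77 and 0.61. Of 22 guidance and vascular signals, Sema7a stood at -2.26 and 0.51 and Slit2 at -3.11 and -4.97 (error 0.32; -0.74 with normexp background), and the rest were within 2-fold. In the growth and atrophy list 2 of 41 were higher and 3 lower (median -0.02), against the same shares of all genes. Its largest value was for myostatin, Mstn, higher by at least 3.19 but with an error of 1.46 (1.29 with normexp background).

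Some stress proteins lay toward soleus. Of 27 small heat shock proteins and chaperones, 0 were higher and 6 lower (median -0.29), against 5.71% and 6.11% of all genes. In all 20 lay below 0, while the chaperones Hspa8 (0.17), Hspd1 (0.03) and Hspa5 (0.02) were near equal. Hspb6 stood at 6.49 and 4.89, Hspb1 at 5.95 and 4.84, their partner Bag3 at 4.52 and 3.40 and Hspa2 at -0.28 and -2.64, beside Hspb7 above. Cryab, alphaB-crystallin, was at -1.0, just inside the threshold, and its direct neighbour Hspb2 at -0.13. Hspb8 was at -0.25.

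Of 45 antioxidant and detoxification genes, 10 were lower and 2 higher (median -0.20), against 6.11% and 5.71% of all genes. Glutathione transferases of the alpha class were lower: Gsta4 stood at 2.36 and 0.34, Gsta1 at 3.59 and 2.19 and Gsta3 at 1.88 and 0.46. Gpx1, the glutathione peroxidase of cytosol and mitochondria, stood at 7.33 and 5.61, catalase Cat at -0.70 and -2.02, Nqo1, the quinone reductase, at -0.55 and -2.35 and the metallothioneins Mt1 and Mt2A at 1.74 and 0.38 and at 1.69 and 0.23. Superoxide dismutases did not share this, with Sod1 at -0.11 and Sod2 at -0.09. The 2 higher genes were Gstm2, a mu-class transferase (-1.44 and 0.70), and the selenoprotein Selenow (3.09 and 4.66). The mu-class Gstm1 was at 0.37. The alpha-class genes are close in sequence and may share signal.

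**Figure D4:**
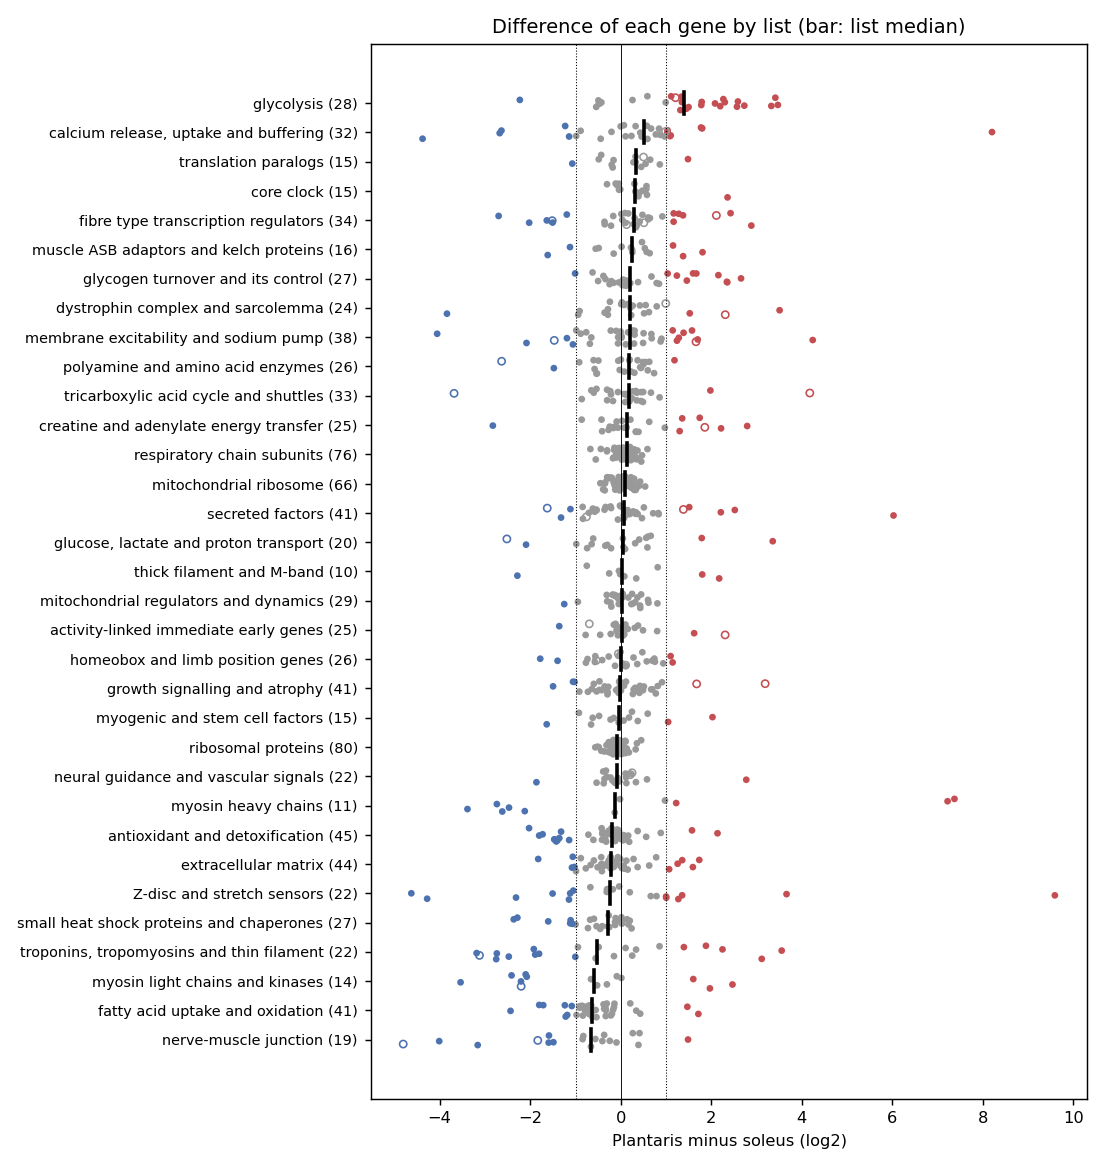
Difference between plantaris and soleus (log2) of every gene in 33 lists, sorted by list median (black bar), with the number compared in brackets; open circles are bounds and dotted lines mark 2-fold. Glycolysis has the highest median at 1.40 and the nerve-muscle junction the lowest at -0.66, while respiratory chain and ribosomal protein genes, each on its brightest probe, stay inside the dotted lines.

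Smaller groups showed single genes. None of 80 cytosolic ribosomal proteins passed 2-fold (median -0.08, and -0.38 under quantile normalization). Among 15 translation paralogs, Eif4e3 was higher by 1.48 and Eef1a1 lower by 1.07 on the log2 scale. Of 16 muscle ubiquitin ligase adaptors, Klhl21 (1.81), Asb11 (1.38) and Klhl31 (1.15) were higher and Asb18 (-1.61) and Asb5 (-1.12) lower. In amino acid metabolism Glul, glutamine synthetase, was higher by 1.19 and Odc1, the first enzyme of polyamine synthesis, lower by 1.48 on the log2 scale. Ass1 was lower by at least 2.63 (error 0.91; 0.58 with normexp background) on the mean of its soleus spots. Those spots disagreed, at -5.22 and -2.47, so the bound holds for their mean only. In the clock list of 15, Per3 alone passed 2-fold, at 2.36 on 1 probe and -0.20 on another. Npas2 was at 0.41 on its brightest probe and -1.14 on another. Of 25 immediate early genes Nr4a1 was higher by 1.62 and Nr4a3 by at least 2.30 (error 0.45; 0.97 with normexp background), and Ier3 was lower by 1.36 on the log2 scale. In a list of 20 transport genes Slc37a4, the glucose 6-phosphate transporter, stood at 3.17 and 4.96.

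The extracellular matrix list had 5 of 44 genes higher and 4 lower (median -0.21), against 5.71% and 6.11% of all genes. Fibrillar collagen I was higher in plantaris, with Col1a1 at 5.20 and 6.79 and Col1a2 at 6.19 and 7.26 (1.07, or 0.76 under quantile normalization), but collagen III, Col3a1, was at -0.28. The small proteoglycan Fmod stood at 4.10 and 5.46, the cartilage protein Cilp2 at -3.79 and -2.54 (0.80 with normexp background) and tenascin Tnc at -5.05 and -3.32 (error 0.33; 0.87 with normexp background). Timp1, an inhibitor of matrix proteases, stood at 2.16 and 0.34, and Loxl1 and Cilp were lower by 1.08 and 1.06 on the log2 scale (0.87 and 0.86 with normexp background). Bgn was at -1.02 on 1 probe and 0.31 on another. Of 7 tendon markers 4 were higher (Chad 1.81, Kera 1.36, Fmod 1.36 and Cilp2 1.26), Tnmd and Comp were at 0.78 and 0.63, and Scx at -0.85. Their summed linear level was 34.5 on the soleus array and 59.9 on the plantaris array. Of 10 fibroblast markers 2 were higher, both collagen I genes, and the summed level was 189 on the soleus array and 336 on the plantaris array. The other 8 summed to 78.9 on the soleus array and 72.1 on the plantaris array. The part of tendon or fibroblast RNA in the matrix differences was not tested.

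Markers of other cell types were checked in the same way. All 11 macrophage markers lay below 0 and within 2-fold (median -0.56, summed level 32.1 on the soleus array and 23.1 on the plantaris array), as did all 5 red blood cell markers (median -0.47, summed 262 and 182). Of 8 endothelial markers Cdh5 alone was past 2-fold, lower by 1.71 on the log2 scale. The others ran from -0.37 (Esam) to 0.11 (Flt1), with Pecam1 at -0.31 and Kdr at -0.03. Of 10 smooth muscle and pericyte markers Notch3 was higher by 1.05 (0.84 with normexp background) and Lmod1 by at least 4.26 (error 0.73; 1.91 with normexp background), and the defining contractile markers Acta2 and Myh11 were at -0.16 and -0.48. Of 6 adipocyte markers Cidea stood at 3.01 and -0.31, while Adipoq was at 0.24. Among 10 Schwann cell markers Mag was higher by 1.24 and Cnp lower by 1.32 on the log2 scale (0.71 with normexp background), with the median at 0.09. Of 9 satellite cell markers, Cdh15 (M-cadherin) stood at -1.92 and 1.58, and Sdc4 was lower by 1.38 on the log2 scale. Of 3 brown adipocyte markers compared, Cidea was lower and Otop1 was at 0.08 (median 0.08). Of 6 intrafusal fibre markers Myh7b and Myh6 were lower and the other 4 within 2-fold (median -0.40). Lymphocyte and mast cell markers had 0 of 3 and 0 of 7 past 2-fold. Of 5 cardiac markers 4 were lower, all of them sarcomere genes (Myh6, Myl4, Tnnt2 and Tnni3). The part of these cells in the results above was not tested.

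**Figure D5:**
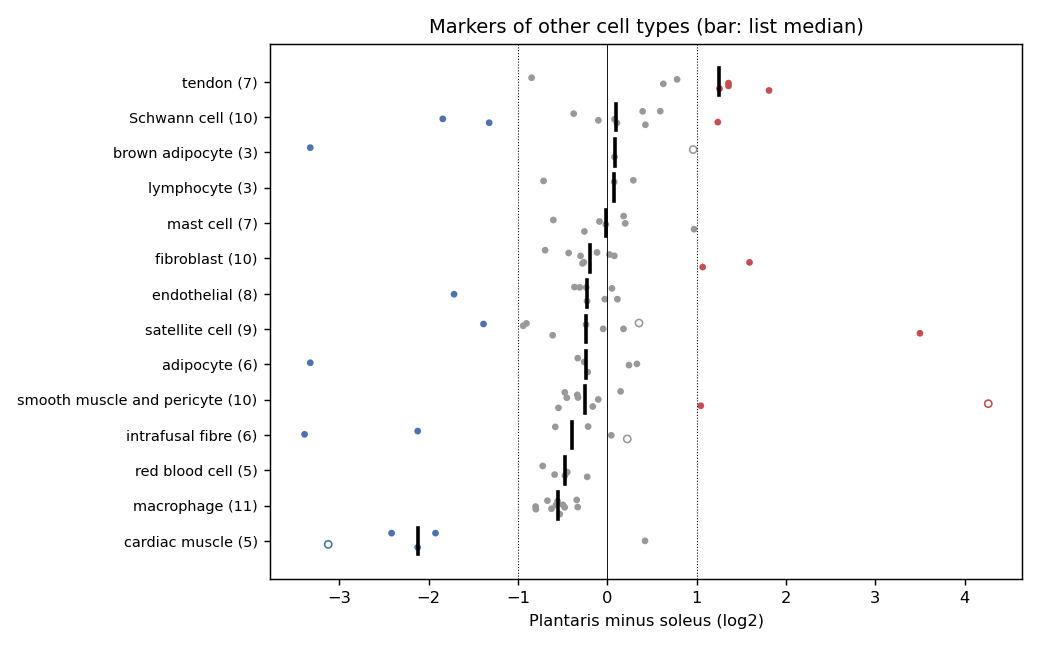
Difference between plantaris and soleus (log2) of marker genes of other cell types, sorted by list median (black bar), with the number compared in brackets; open circles are bounds and dotted lines mark 2-fold. Tendon markers have the highest median at 1.26 and cardiac markers the lowest at -2.12, and all macrophage markers lie between -0.80 and -0.33.

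Some of the largest differences fell outside these groups. Mss51, a muscle-enriched mitochondrial protein gene, stood at -1.03 and 4.86 (5.89) on 1 spot per array. Cib2, a calcium- and integrin-binding protein, stood at -4.47 and 0.93 (5.40), Cd24, a surface glycoprotein gene, at 0.03 and 4.21 (4.19) and Or10h1, annotated as an olfactory receptor, at -4.50 and 0.49 (4.99). Each of these exceeded 4 log2 units with an error of at most 0.28, and Or10h1 too rested on 1 spot per array. With normexp background Cib2 was higher by 3.99 and Or10h1 by 3.54. Toward soleus, Epn3, an endocytic adaptor, was at -4.04 on 1 probe and -1.16 on another (-3.35 for the first with normexp background), Pgap4 stood at 3.39 and -0.26 (-3.65) and Cda, cytidine deaminase, at 1.64 and -1.91 (-3.55). Among bounds the largest on the plantaris side was Tpx2, a spindle protein, higher by at least 5.80 on 1 spot (error 0.45), followed by Iqcg at 4.59 (error 1.46). With normexp background these were 3.57 and 2.29.

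On the denervated soleus array, which was processed on another slide, several of these genes stood far from both normal muscles. Ankrd2 was at -1.53 there, below its 6.84 in normal soleus and 2.57 in plantaris, and Sln at 6.95, above its 4.74 and 0.37. Actn3 was at 4.80, between its levels of -0.35 and 9.24, and Pvalb at 6.91, between 0.89 and 9.09. Cib2 (-3.14), Cd24 (0.39) and Atp1b2 (0.83) lay nearer their level in normal soleus than in plantaris. Slide and denervation cannot be told apart on that array.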

How the data were processed

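RNA of 1 normal soleus and 1 normal plantaris sample was compared, with the denervated soleus array as context. Per the file headers, Agilent Feature Extraction 10.10.1.1 gave the deposited processed signal, a linear intensity from which it had taken the background and a trend across the slide. Other deposited columns, per the file headers, hold flags of 0 or 1 for outlier, saturated and well-above-background spots. The authors' value table, a deposited intensity as well, matched that signal after 1 constant factor for each array (1.60 for soleus, 1.80 for plantaris).

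The log2 signal of 58717 non-control spots was centred on each array's 75th percentile. Outlier spots were left out (487 on the soleus and 467 on the plantaris array), 0 were saturated, and repeat spots were averaged; among probes well above background their SD was 0.06 and 0.07 at the median. Of the probes, 64.2% and 65.3% were well above background, meaning in at least 50% of their spots. Genes were named by RefSeq accession, the probe brightest over the 3 arrays stood for a gene, and a gene entered if well above background on either array, which left 11015 genes. A bound compares the bright array with the dim array's signal, or with the lowest well-above signal of that array where this is larger. Python 3.11.15, pandas 2.3.3 and, for normexp, limma 3.58.1 were used, and the code was tested on simulated data. Alternatives were normexp background (offset 50, on the median spot signal, as the mean signal was not used here), quantile normalization, median centring, the authors' values, a mean over probes, other filters and outlier spots kept.

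With 1 array per group no test is possible and the number of arrays limits the precision. The comparison, lists and pairs were chosen with earlier results of these data known. Named genes are the largest differences and bounds, members of the isoform pairs, and in each list those with the largest differences, those past 2-fold against the list, any in lists of up to 15, and isoforms, subunits or partners of these. Chosen after their values were seen, to complete a pathway or role, were Abcc8, Acot2, Acta1, Bgn, Cacna1s, Cacna2d1, Cacng6, Cat, Cd36, Cilp, Cpt1b, Cryab, Cs, Dmd, Eci1, Gapdh, Gpi, Jph2, Kcnj12, Lmod2, Lrp4, Mt1, Mt2A, Ndufv3, Pfkfb1, Pfkfb3, Pgk1, Rapsn, Scn4a, Slc2a4, Smarcd3, Sod1, Sod2, Tpi1 and Uqcrb. A few list members are not reported here.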

Additional observations from a re-analysis of the deposited data

Results flagged for a closer look

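Probes without a gene symbol in the reference used here carried differences that the comparison of named genes leaves out. Of 7807 such probes well above background on either array, 759 (9.72%) were at least 2-fold higher in plantaris and 470 (6.02%) at least 2-fold lower. The highest differed by 9.63, from -2.61 on the soleus array to 7.02 on the plantaris array, and the lowest by -4.77, from 0.45 to -4.32.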

How the results depend on the processing

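Counts moved most with normexp background, which gave 309 higher and 283 lower genes, of which 308 and 280 were among the 629 and 673 reported. Among genes measured on both arrays 439 were higher and 433 lower. The authors' values shifted all genes by -0.11 at the median, and 39.5% of genes past 2-fold were then higher, against 48.3%. No gene past 2-fold turned sign in any alternative. Of 210 named genes past 2-fold, 43 came inside it in at least 1 alternative, 31 of them with normexp background, and 4 named genes within 2-fold passed it. The count of crossed isoform pairs was 11 or 12, in settings added after the data were seen.

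Of 47 list medians 14 changed sign in some alternative, none of them more than 0.13 from 0 as reported. With normexp background the median was -0.38 for myosin light chains, -0.42 for the junction list, 0.80 for tendon, -1.84 for cardiac and -0.0345 for intrafusal markers. Under quantile normalization it was -0.16 for the respiratory chain, -0.38 for ribosomal proteins and -2.47 for cardiac markers. With no filter on dim probes cardiac markers stood at -0.84, and among genes well above background on both arrays the brown adipocyte markers stood at -1.62. The cause was not tested, other than that these filters change which genes enter. Faint signal limits the bounds, with errors of up to 1.46 among those named. No paired analysis was possible because each group holds 1 array.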
